A study of Homo sapiens with 6 samples.

Results

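The genes described here are EPAS1, which encodes the oxygen-regulated transcription factor HIF-2α, and the 8 genes that encode its closest relative, its partners and the proteins that control its turnover and activity: HIF1A, ARNT, ARNT2, EGLN1, EGLN2, EGLN3, VHL and HIF1AN. They were taken from the count tables by gene symbol, current or older, and all 9 were found among the 63677 identifiers of the files. EPAS1 was chosen by its fold change between the groups, seen in earlier results of these data, so its values are given as a description with no test. The other 8 genes were listed for their place in the pathway. The cells were SW480, an established line from a human colorectal adenocarcinoma, transduced with a doxycycline-inducible vector for either POU5F1B, a retrogene copy of the pluripotency gene POU5F1, or GFP as the control. Both groups had 72 h of doxycycline at 1 µg/mL, and each had 3 libraries. The study's methods describe a lentiviral vector that adds an HA tag and puromycin selection of the transduced cells. The labels do not say whether libraries of a group came from separate cultures, so p-values here measure the spread between these libraries, which may be technical.

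Hypoxia-inducible factors are dimers of an alpha subunit, encoded by HIF1A or EPAS1, and a constitutive beta subunit, encoded by ARNT or ARNT2. In the presence of oxygen the prolyl hydroxylases EGLN1, EGLN2 and EGLN3 modify the alpha subunit, VHL recognises the modified protein as part of a ubiquitin ligase, and the protein is degraded. HIF1AN, an asparaginyl hydroxylase, blocks the recruitment of coactivators by the alpha subunit. Since this control acts on the protein, transcript levels do not show how much HIF protein the cells held. In the intestine HIF-2 is known for its part in iron uptake and in colon tumour growth. The oxygen level of the cultures was not given in the sources used here.

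The libraries held 10767947 to 12787637 counts. POU5F1B itself had 6, 5 and 1 counts in GFP replicates 1, 2 and 3 and 15027, 11393 and 1458 in POU5F1B replicates 1, 2 and 3. Its level in POU5F1B replicate 3 was thus 9.22 times below the mean of replicates 1 and 2. Both replicate 3 libraries also stood apart from replicates 1 and 2 of their group over all genes, and a fit with quality weights gave GFP replicate 3 a weight of 0.111 against 0.575 to 2.79 for the others. For part of the results below, values without replicate 3 libraries are therefore given as well. Of 14286 genes that passed the filter on low counts, 0 (0%) met the call threshold with limma voom (adjusted p under 0.05, fold above 2), and 1698 (11.9%) had an unadjusted p under 0.05. The quasi-likelihood test of edgeR also called 0 and had 1720 at an unadjusted p under 0.05, while DESeq2 called 232. The smallest adjusted p by limma voom was 0.122, so no gene passed, not even POU5F1B (log2 fold change 10.7). A count of 0 by limma voom for members or a list below is therefore no result particular to them.

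EPAS1 was the member with the largest difference, and each POU5F1B library held more of it than any GFP library. GFP replicates 1, 2 and 3 had 1187, 1111 and 666 counts of EPAS1, or 100, 84.6 and 58.0 CPM (the count relative to a library size scaled by TMM). In POU5F1B replicates 1, 2 and 3 it had 4419, 3745 and 4018 counts, or 348, 347 and 335 CPM. The lowest POU5F1B library was thus 3.34 times above the highest GFP library. The means were 80.9 ± 21.3 CPM with GFP and 343 ± 7.40 CPM with POU5F1B (SD, n = 3), a ratio of 4.24. In bulk RNA, fewer cells with a transcript and less transcript per cell cannot be told apart. The fitted log2 fold change was 2.12 ± 0.19 (SE), which ranked 130 of 14286 genes by size in either direction. By replicate number the log2 difference was 1.80, 2.03 and 2.53, largest in the pair where GFP replicate 3 was low. Here and below, a pair means libraries with the same number in their titles, which were not taken to be matched. Without GFP replicate 3 the fitted value was 1.89, and with replicates 1 and 2 only it was 1.91.

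The 3 POU5F1B libraries were close to each other in EPAS1. The highest was 1.04 times the lowest, a coefficient of variation of 2.16%, against 1.73 times and 26.3% among the GFP libraries. The SD of log2 CPM among POU5F1B libraries was 0.03 for EPAS1 and had a median of 0.18 over all tested genes, of which 3.01% had a smaller one. EPAS1 was also among the genes with the highest CPM there, with 2.93% of tested genes at a higher mean CPM. That rank is not adjusted for gene length. Its SD was not compared with genes of similar level. EPAS1 was level across these libraries although POU5F1B was not: POU5F1B was at 1182, 1056 and 121 CPM in replicates 1, 2 and 3. The library with the least POU5F1B transcript among the POU5F1B libraries had 335 CPM of EPAS1 and the other libraries of that group had 1.04 times as much on average. With 3 libraries no relation between both transcripts was tested.

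**Figure D1:**
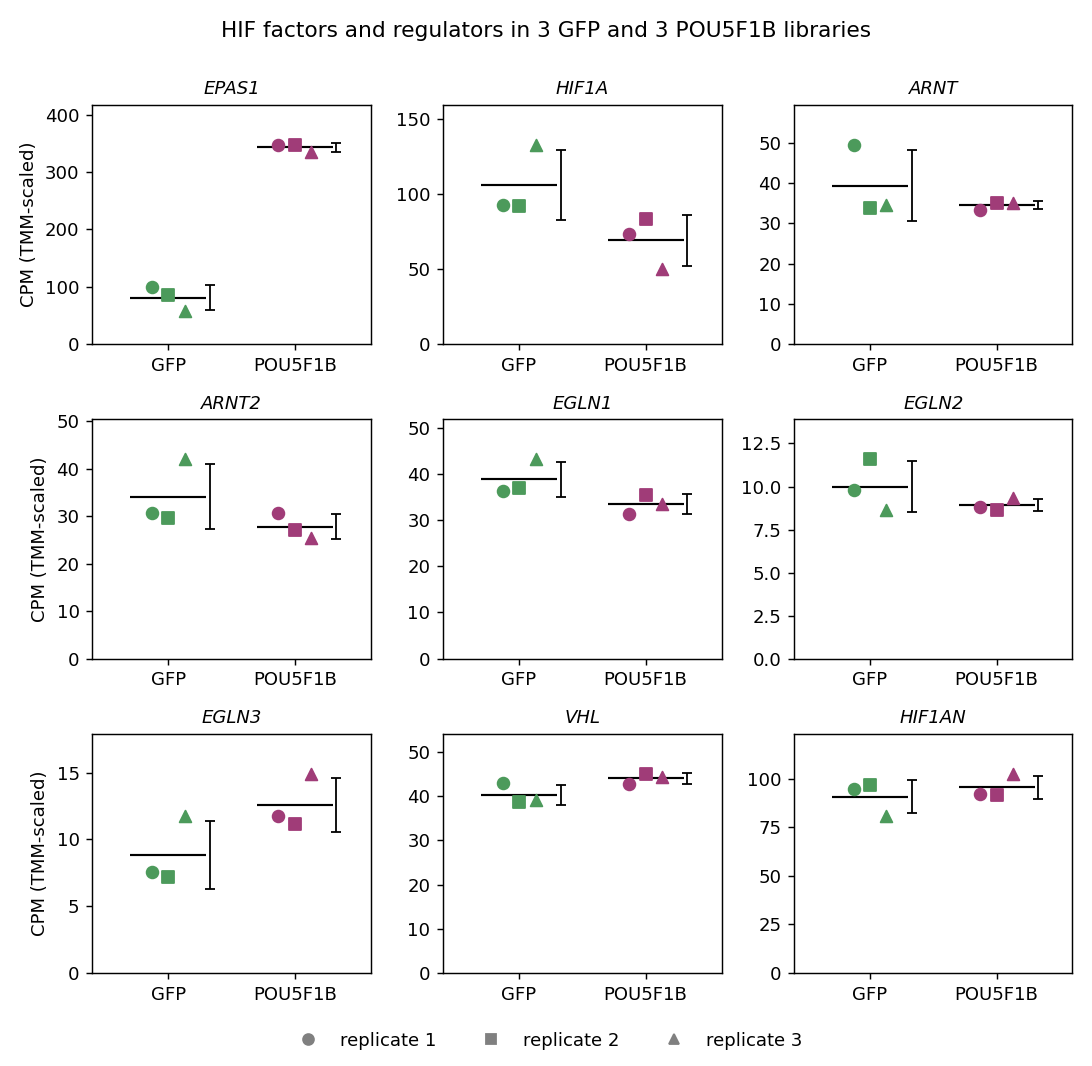
Levels of the 9 genes in each library, as CPM on TMM-scaled library sizes (y axes start at 0 and differ between panels). Points are libraries, shaped by replicate number; lines are group means and bars their SD (n = 3). EPAS1 separates the groups by the widest gap, HIF1A and EGLN1 separate them in the other direction by a narrow one, and the groups overlap for the other 6 genes.

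HIF1A, which encodes the HIF-1α subunit, was lower in each POU5F1B library than in any GFP library, the opposite order to EPAS1. It had 1104, 1214 and 1529 counts (93.0, 92.5 and 133 CPM) in GFP and 937, 904 and 602 counts (73.7, 83.8 and 50.1 CPM) in POU5F1B replicates 1, 2 and 3. Replicate 3 was the highest of the GFP and the lowest of the POU5F1B libraries. The means were 106 ± 23.3 CPM with GFP and 69.2 ± 17.3 CPM with POU5F1B (SD, n = 3). The log2 fold change of -0.63 ± 0.24 (SE) did not pass the threshold (adjusted p = 0.366 by limma voom; 95% interval -1.19 to -0.07). The pair differences were -0.34, -0.14 and -1.41 for replicates 1, 2 and 3. With replicates 1 and 2 only the fold change came to -0.26, without POU5F1B replicate 3 it was -0.41 and without GFP replicate 3 it was -0.47. Non-overlap alone was common: the groups did not overlap for 19.4% of all tested genes, with 9.24% lower and 10.2% higher in POU5F1B cells, and it held for 2 of the 8 members other than EPAS1, both lower. None of the 8 passed the threshold with limma voom, edgeR or DESeq2, and HIF1A alone had an unadjusted p under 0.05 with each tool. That p was 0.0331 by limma voom, and 0.0560 and 0.0864 without POU5F1B replicate 1 or 3.

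Per kilobase of annotated exon, which allows levels of different genes to be set side by side, the order of the alpha subunits was not the same in both groups. EPAS1 was at 13.7, 11.6 and 7.95 CPM per kb and HIF1A at 18.1, 18.0 and 25.8 CPM per kb in GFP replicates 1, 2 and 3. In POU5F1B replicates 1, 2 and 3, EPAS1 was at 47.7, 47.6 and 45.9 CPM per kb and HIF1A at 14.3, 16.3 and 9.73 CPM per kb. The ratio of EPAS1 to HIF1A was therefore below 1 in each GFP library (0.760, 0.647 and 0.308) and above 1 in each POU5F1B library (3.33, 2.93 and 4.72). EPAS1 made up 35.3 ± 10.4% of both alpha transcripts per kb in GFP and 78 ± 4.09% in POU5F1B cells (SD, n = 3). When the longest annotated transcript was used as the length in place of all exons, the ratios ran from 0.334 to 0.825 in GFP and from 3.18 to 5.12 in POU5F1B libraries. These ratios contain the EPAS1 difference that chose the gene and carry no test. The third alpha subunit gene, HIF3A, was barely detected, with 0, 1 and 2 counts in GFP replicates and 0 in each POU5F1B library. That is at or under the floor of 3 counts, which corresponds to 0.229 to 0.278 CPM depending on the library.

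**Figure D2:**
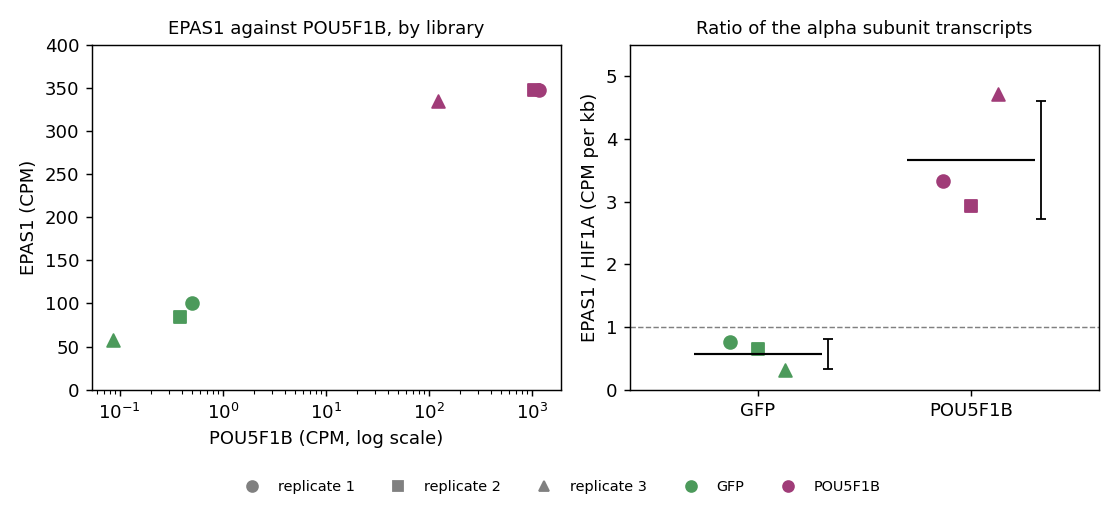
Left, EPAS1 CPM (linear y axis) against POU5F1B CPM (log x axis) in each of the 6 libraries, coloured by group and shaped by replicate number. Right, the ratio of EPAS1 to HIF1A in CPM per kb of exon, with group means as lines and SD as bars (n = 3). POU5F1B replicate 3 has 121 CPM of POU5F1B but 335 CPM of EPAS1, and the ratio lies below 1 in the GFP and above 1 in the POU5F1B libraries.

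The sequence upstream of the start of both alpha genes, and of EGLN3, is shown because these members differed most between the groups in size. Promoters were found for 7 of the 9 members in the RefSeq table used here (GRCh38.p14), and the 250 bases before the start were searched on both strands for the core of the HIF response element (ACGTG or GCGTG) and for the octamer ATGCAAAT, the letters that POU factors are known to bind. Matches are in capitals in the stretches below, which read 5′ to 3′ along the strand of the gene.

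EPAS1, chr2:46297157-46297406, plus strand: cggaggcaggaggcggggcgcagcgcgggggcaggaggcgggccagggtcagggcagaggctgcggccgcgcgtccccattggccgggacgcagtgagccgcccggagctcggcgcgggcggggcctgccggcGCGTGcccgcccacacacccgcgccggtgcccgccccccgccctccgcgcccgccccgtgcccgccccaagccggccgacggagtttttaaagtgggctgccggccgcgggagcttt

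HIF1A, chr14:61695263-61695512, plus strand: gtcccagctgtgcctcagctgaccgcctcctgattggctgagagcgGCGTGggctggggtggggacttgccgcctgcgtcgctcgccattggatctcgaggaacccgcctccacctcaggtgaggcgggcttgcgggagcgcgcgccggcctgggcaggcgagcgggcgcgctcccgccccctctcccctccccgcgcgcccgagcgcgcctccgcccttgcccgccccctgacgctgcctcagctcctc

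EGLN3, chr14:33951075-33951324, minus strand: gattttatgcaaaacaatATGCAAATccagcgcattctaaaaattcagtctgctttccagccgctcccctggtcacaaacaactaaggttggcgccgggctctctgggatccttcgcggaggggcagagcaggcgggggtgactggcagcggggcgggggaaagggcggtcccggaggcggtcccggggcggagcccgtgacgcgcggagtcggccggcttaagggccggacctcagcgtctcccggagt

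The EPAS1 and HIF1A stretches each held 1 GCGTG, starting at position -117 and -204 from the start, and no octamer. The EGLN3 stretch held 1 octamer, at -232, and neither core. Of the other members, EGLN1 held 1 ACGTG at -13, EGLN2 held an ACGTG on each strand in overlapping letters at -49 and -48 and 1 octamer at -192, and ARNT and HIF1AN held no match. HIF1A and EGLN2 each had another start in the table, whose upstream stretch held none of these letters. Over all 35116 promoters of the table, GCGTG occurred in 32.2%, ACGTG in 18.5%, at least one of the cores in 43.2% and the octamer in 1.63%. A match of letters is a description and shows no binding. The paper found POU5F1B mostly in the cytoplasm of overexpressing SW480 cells. It also states that chromatin immunoprecipitation showed no significant recruitment of POU5F1B to the genome.

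The genes of the beta subunits did not separate the groups. ARNT, the common partner of both alpha subunits, had 49.5, 33.8 and 34.6 CPM with GFP and 33.3, 35.1 and 35.1 CPM in the POU5F1B replicates 1, 2 and 3, and the groups overlapped. Its log2 fold change came to -0.16 ± 0.18 (SE; adjusted p = 0.756 by limma voom; 95% interval -0.60 to 0.27), and without GFP replicate 1, the highest library, it was 0.012. ARNT2, the paralog of ARNT best known from neurons, had 30.7, 29.6 and 41.9 CPM with GFP and 30.6, 27.2 and 25.5 CPM in the POU5F1B replicates. Only GFP replicate 3 stood above the rest. Its log2 fold change came to -0.27 ± 0.19 (SE; adjusted p = 0.600 by limma voom; 95% interval -0.72 to 0.17), and it was -0.13 without GFP replicate 3 and -0.07 with replicates 1 and 2 only. Neither interval reaches a 2-fold difference, so for both beta subunits a change of the size seen for EPAS1 lies outside the interval.

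Among the oxygen sensors, EGLN3 had the largest fold change. EGLN3 is itself a known target of HIF. It had 90, 94 and 135 counts (7.58, 7.16 and 11.7 CPM) in GFP and 149, 120 and 179 counts (11.7, 11.1 and 14.9 CPM) in POU5F1B replicates 1, 2 and 3. It was higher with POU5F1B in 3 of 3 pairs (0.62, 0.62 and 0.34 on the log2 scale), as were 19.0% of all tested genes. However, GFP replicate 3 reached the lower POU5F1B libraries and the groups overlapped. The log2 fold change was 0.54 ± 0.26 (SE; adjusted p = 0.462 by limma voom; 95% interval -0.07 to 1.15). With replicates 1 and 2 only it was 0.62, with an adjusted p of 0.0265 by limma voom, still within the 2-fold limit of the threshold. The adjusted p ranged from 0.0115, with quality weights, to 0.938, without POU5F1B replicate 1. An adjusted p under 0.05 was common in these settings: 4238 of 14286 genes had it with replicates 1 and 2 only, and 3973 with quality weights.

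EGLN1, the main prolyl hydroxylase of the HIF alpha subunits, had 36.3, 37 and 43.2 CPM with GFP and 31.2, 35.5 and 33.6 CPM in the POU5F1B replicates 1, 2 and 3. The POU5F1B libraries were all lower than the GFP libraries by a narrow margin. The log2 fold change came to -0.21 ± 0.14 (SE, adjusted p = 0.587 by limma voom, 95% interval -0.55 to 0.12), and to -0.15 without GFP replicate 3, the highest library. EGLN2 had 9.77, 11.6 and 8.61 CPM with GFP and 8.81, 8.62 and 9.32 CPM in the POU5F1B replicates, with overlap and a fitted log2 value of -0.16 ± 0.20 (SE; adjusted p = 0.786 by limma voom), which was -0.024 without GFP replicate 2, -0.27 without GFP replicate 3 and -0.30 with replicates 1 and 2 only. Its counts are uncertain, as 30.6% of its annotated exon bases are shared with the read-through gene RAB4B-EGLN2 on the same strand, which had 0 counts in all 6 libraries. For EGLN1 55.8% of the exon bases are shared with a same-strand gene that is not counted in the files, for VHL 23.5% with an opposite-strand one, and for HIF1A 5.81% with HIF1A-AS3 on the opposite strand, which had 1 to 16 counts.

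HIF1AN and VHL varied little. HIF1AN had 94.5, 97.0 and 81.1 CPM with GFP and 92.2, 91.9 and 103 CPM in the POU5F1B replicates 1, 2 and 3, a fitted log2 value of 0.07 ± 0.12 (SE; adjusted p = 0.846 by limma voom; 95% interval -0.22 to 0.36) that took the other sign with replicates 1 and 2 only (-0.070). VHL, the substrate receptor of the ligase that removes both alpha subunits, had 43.0, 38.8 and 39.2 CPM with GFP and 42.7, 45.0 and 44.4 CPM in the POU5F1B replicates. GFP replicate 1 lay within the POU5F1B range, and the log2 fold change was 0.13 ± 0.12 (SE; adjusted p = 0.701 by limma voom; 95% interval -0.16 to 0.42). For these genes, too, the intervals stay inside a 2-fold difference in either direction.

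**Figure D3:**
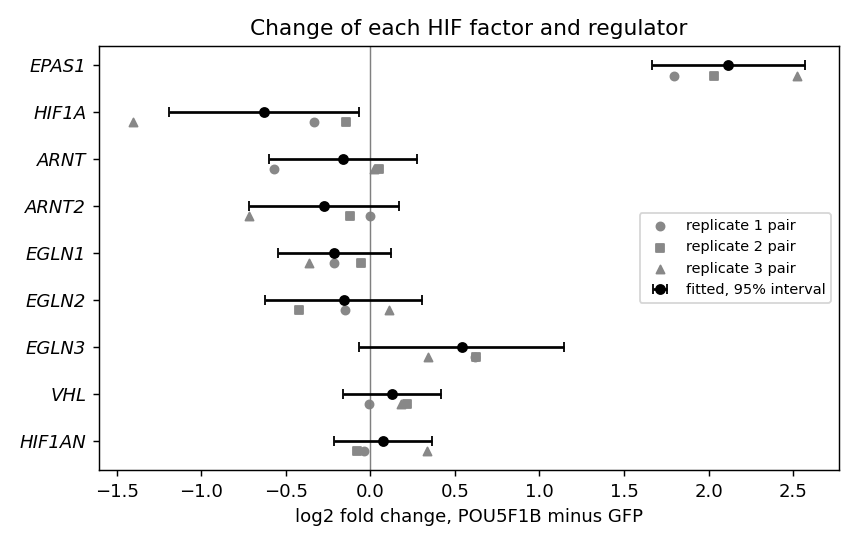
Log2 fold change of each gene, POU5F1B minus GFP. Black points and bars are the fitted value and its 95% interval (limma voom, n = 3 per group). For EPAS1, which was chosen by its difference, the interval is a description and no test. Grey symbols are the differences of log2 CPM between libraries of the same replicate number. EPAS1 is at 2.12, EGLN3 at 0.54 and HIF1A at -0.63, and the other 6 lie between -0.27 and 0.13.

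The other members lie on several chromosomes (GRCh37). HIF1A is on chromosome 14 at 62162231 to 62214977 and EGLN3 on the same chromosome at 34393433 to 34931980. ARNT is on chromosome 1 at 150782189 to 150849184, as is EGLN1 at 231499497 to 231558033. ARNT2 is on chromosome 15 at 80696692 to 80890274, EGLN2 on chromosome 19 at 41304901 to 41314339, VHL on chromosome 3 at 10183462 to 10195351 and HIF1AN on chromosome 10 at 102288829 to 102319755. The levels per kb were then ordered within the GFP group. HIF1A came first at 20.6 ± 4.52 CPM per kb (SD, n = 3), followed by EPAS1 at 11.1 ± 2.92, VHL at 8.06 ± 0.463, EGLN1 at 7.21 ± 0.703, HIF1AN at 6.54 ± 0.616, ARNT at 6.10 ± 1.37, ARNT2 at 4.40 ± 0.885, EGLN2 at 1.52 ± 0.227 and EGLN3 at 1.2 ± 0.344. HIF1A did not overlap with EPAS1 across the GFP libraries, while EPAS1 and VHL overlapped, as did each following pair of neighbours except ARNT2 and EGLN2. In POU5F1B cells EPAS1 came first at 47.1 ± 1.02 CPM per kb and HIF1A second at 13.4 ± 3.35. VHL at 8.81 ± 0.241 was the third in both groups. With the longest transcript as the length, EPAS1 stayed the second in GFP cells, at 15.7 CPM per kb, while VHL and EGLN1, HIF1AN and ARNT, and EGLN2 and EGLN3 changed places.

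To ask whether transcripts that respond to HIF differed as well, a pair of lists was drawn up from general knowledge, with earlier results of these data known: genes reported to respond to HIF-2 and genes of glycolysis and hypoxia that respond mainly to HIF-1. A gene of the HIF-2 list, such as SLC2A1 or VEGFA, may respond to HIF-1 as well. The lists therefore do not tell the alpha subunits apart. Of 22 HIF-2 responsive genes 18 were tested, and 0 of 18 passed the threshold with limma voom and edgeR and 1 with DESeq2 (0% of all tested genes did with limma voom, and 232 of 14286 with DESeq2). At an unadjusted p under 0.05, 9 were higher and 1 was lower in POU5F1B cells with limma voom, where 6.07% of all tested genes were higher and 5.82% lower. The groups did not overlap for 7 higher genes and 1 lower gene, where 10.2% and 9.24% of all tested genes did not. The median log2 fold change was 0.33, beside -0.02 over all tested genes. Of the 18, 10 were higher with POU5F1B in all 3 pairs, as were 19.0% of all tested genes, and 2 were lower in all 3, as were 17.8%. With replicates 1 and 2 only, 9 were higher and 4 lower at an unadjusted p under 0.05, but by then 19.5% of all tested genes were higher and 20.7% lower. The count of 9 was 1 without POU5F1B replicate 1 (2.62% of all tested genes higher) and 3 without POU5F1B replicate 2 (3.52%), and was 9 without GFP replicate 3 (13.8%) and 7 without POU5F1B replicate 3 (6.43%).

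CCND1, the gene of cyclin D1 and among the highest of the list per kb, was at 1310, 1318 and 688 CPM with GFP and 2269, 2141 and 1526 CPM with POU5F1B (log2 fold change 0.88 ± 0.28 SE; adjusted p = 0.321 by limma voom). BHLHE41, which encodes a transcriptional repressor of the circadian clock, was low, at 2.65 CPM on average in GFP and 5.5 CPM with POU5F1B, and did not overlap (1.08 ± 0.37 SE; adjusted p = 0.342 by limma voom). In the opposite direction, FLT1, a receptor for VEGF, was at 18.6, 24.0 and 12.8 CPM with GFP and 3.07, 3.52 and 11.2 CPM in the POU5F1B replicates 1, 2 and 3 (log2 fold change -1.85 ± 0.49 SE; adjusted p = 0.261 by limma voom). Its difference was thus large in pairs 1 and 2 (-2.54 and -2.71) and small in pair 3 (-0.19).

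Further non-overlapping genes of this list are named after their values were seen. SLC2A1, the glucose transporter GLUT1, was higher by 0.62, 0.68 and 0.62 on the log2 scale in pairs 1, 2 and 3 and had the smallest p of the list (adjusted p = 0.210 by limma voom). CYBRD1, a duodenal ferric reductase of iron uptake, was higher by 0.45, 0.43 and 0.70, and IGFBP3, a carrier of insulin-like growth factors, by 0.64, 0.47 and 0.27. VEGFA, the main angiogenic ligand, was higher by 1.41 and 0.99 in pairs 1 and 2 but by 0.03 in pair 3. The iron importer SLC11A2 and the lipid droplet protein PLIN2, also named after their values were seen, had log2 fold changes of 0.12 and 0.00, and the groups overlapped. The iron exporter SLC40A1, named in the same way, was at 7.16, 5.64 and 20.7 CPM with GFP and 1.42, 1.58 and 10.5 CPM in the POU5F1B replicates 1, 2 and 3. It was lower in 3 of 3 pairs, as were 17.8% of all tested genes, with overlap between the groups (-1.68 on the log2 scale, adjusted p = 0.484 by limma voom). SLC40A1 passed the threshold with replicates 1 and 2 only and with quality weights, where 5.15% and 4.40% of all tested genes passed as lower. EPO, ANGPT2, LOX and TEK had at most 5 counts in a library and were not tested.

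Of 18 HIF-1 responsive genes 17 were tested, and 0 passed the threshold and 0 had an unadjusted p under 0.05 with limma voom, edgeR and DESeq2 alike. That count changed with GFP replicate 3: without it, 7 of 17 were higher at an unadjusted p under 0.05 (13.8% of all tested genes were), and with replicates 1 and 2 only it was 11 (19.5%). Without POU5F1B replicate 3 alone it was 0. With all libraries their log2 fold changes ran from -0.13 to 0.70 with a median of 0.18, beside -0.02 over all tested genes. Of the 17, 16 were above 0, as were 6706 of the 14286 tested genes. ANKRD37, a small ankyrin-repeat protein, was the one gene without overlap over all libraries, at 3.99 CPM on average in GFP and 5.88 CPM with POU5F1B (0.59 ± 0.25 SE, adjusted p = 0.425 by limma voom). In replicates 1 and 2, 14 of the 17 were higher without overlap and 1 lower, where 33.8% and 32.5% of all tested genes were. For the 18 HIF-2 responsive genes it was 10 and 4. With quality weights, 12 of the 17 HIF-1 responsive genes were higher at an unadjusted p under 0.05 by limma voom, as were 19.9% of all tested genes. GAPDH and ENO1, enzymes of glycolysis and the highest of the list per kb, had log2 fold changes of 0.08 ± 0.09 and 0.01 ± 0.18 (SE). In pair 3, 6 of the 17 were higher with POU5F1B and the median was -0.19 (0.16 and 0.32 in pairs 1 and 2), while the 18 HIF-2 responsive genes had 14 higher and a median of 0.52 in that pair (0.33 and 0.25 in pairs 1 and 2). Over all tested genes, 7218 of 14286 were higher in pair 3, and the medians were 0.015, 0.011 and 0.007 in pairs 1, 2 and 3. The difference between both lists was not tested. Pair 3 sets both libraries that stood apart from their groups against each other, so its medians rest on 1 library per group. BNIP3 had at most 3 counts in a library and was not tested.

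**Figure D4:**
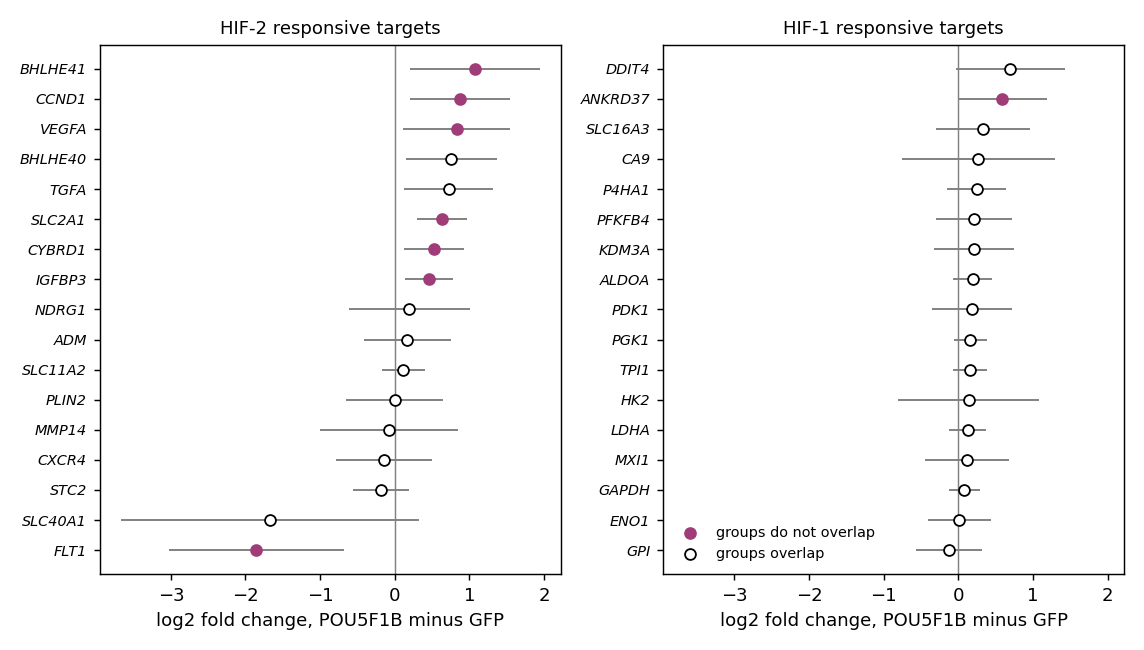
Log2 fold change, POU5F1B minus GFP, of tested genes of both lists (1 HIF-2 responsive gene is not drawn), with 95% intervals (limma voom, n = 3 per group). Filled points are genes whose groups did not overlap. Of the HIF-2 responsive genes drawn 6 are filled above 0 and FLT1 below 0; of the HIF-1 responsive genes ANKRD37 is filled.

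The other regulators of HIF include coactivators, ubiquitin ligases and chaperones. Of 26 genes 25 were tested and 0 passed the threshold with limma voom, edgeR and DESeq2. At an unadjusted p under 0.05, 0 were higher and 2 lower with limma voom, SIAH2 and RACK1 (-0.26 on the log2 scale, named after its value was seen), beside 6.07% higher and 5.82% lower among all tested genes. The median log2 fold change came to -0.13, with a range of -0.16 to -0.05 when one library was left out, nearest to 0 without GFP replicate 2. The groups did not overlap for 3 higher and 3 lower genes, near the 10.2% and 9.24% of all tested genes. The 3 largest of these differences were CITED4, a coactivator-binding protein, at 2.96 CPM on average in GFP and 4.52 CPM with POU5F1B (0.57 ± 0.29 SE; adjusted p = 0.493 by limma voom), SIAH2, a ubiquitin ligase for prolyl hydroxylases (-0.35 ± 0.12 SE; adjusted p = 0.353), and ACO1, the iron regulatory protein known to repress the translation of EPAS1 mRNA (0.29 ± 0.13 SE; adjusted p = 0.445). HSP90AB1 and HSP90AA1, chaperones of the alpha subunits and the highest of the list per kb, had log2 fold changes of 0.14 ± 0.11 and -0.58 ± 0.38 (SE). HSP90AA1 was at 6602 CPM in GFP replicate 3 and between 1864 and 3332 CPM in the other libraries. CITED2, named after its values were seen, had the largest fold change of the list (-1.33 ± 0.57 SE, adjusted p = 0.426 by limma voom). It was at 66.6, 55.9 and 17.3 CPM with GFP and 16.9, 12.2 and 19.9 CPM with POU5F1B, with overlap. With replicates 1 and 2 only, 3 of the 25 were higher and 8 lower at an unadjusted p under 0.05 by limma voom. Of all tested genes 19.5% and 20.7% were.

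Within the bHLH-PAS family, to which EPAS1, HIF1A, ARNT and ARNT2 belong, 11 of the 15 further genes were tested and 0 passed the threshold with limma voom, edgeR and DESeq2. At an unadjusted p under 0.05, 0 were higher and 1 was lower with limma voom (6.07% and 5.82% of all tested genes), and the median log2 fold change came to -0.03, with a range of -0.07 to 0.29 when one library was left out. The lower gene was NCOA2, a nuclear receptor coactivator, at 33.7, 34.2 and 23.5 CPM with GFP and 19.2, 20.3 and 19.5 CPM in the POU5F1B replicates 1, 2 and 3 (-0.62 ± 0.20 SE; adjusted p = 0.317 by limma voom). SIM2, a transcription factor of the nervous system, was at 8.71 CPM on average in GFP and 11.7 CPM with POU5F1B without overlap (0.43 ± 0.21 SE; adjusted p = 0.466). BMAL2 and NCOA3 had the highest levels per kb, with log2 fold changes of 0.09 ± 0.18 and -0.19 ± 0.16 (SE).

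The EPAS1 gene spans bases 46520806 to 46613836 of chromosome 2 (GRCh37, plus strand). Within 500 kb of its start the annotation has 15 other genes of the files, of which 5 passed the filter on low counts, all protein-coding. Of the 10 others 9 had 0 counts in all 6 libraries. ATP6V1E2, a subunit of the vacuolar proton pump that starts 249 kb from EPAS1, was the one neighbour without overlap, at 6.49, 8.15 and 10.4 CPM with GFP and 12.1, 11.2 and 12.8 CPM in the POU5F1B replicates 1, 2 and 3 (0.55 ± 0.22 SE; adjusted p = 0.401 by limma voom). The log2 fold changes of RHOQ, CRIPT, PIGF and SOCS5, given to complete the 5, were -0.19, 0.26, 0.15 and 0.11. In replicates 1 and 2, all 5 neighbours were higher with POU5F1B without overlap, where 33.8% of all tested genes were, but in pair 3 just 1 was higher and the median difference was -0.64. Over all tested genes, 7218 of 14286 were higher in pair 3 and the median was 0.007.

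The genes whose log2 CPM followed EPAS1 most closely over the 6 libraries were PLB1 (Pearson r = 0.996), PLAGL1 (0.996), PITPNA (0.993), ORC1 (0.993) and RPA2 (0.992). The most opposite were REP15 (-0.996), ENSG00000271780 (-0.993), MCF2L-AS1 (-0.992), ZFP14 (-0.992) and EMSY (-0.992). In all, 398 genes had r above 0.9 and 292 below -0.9, and since the points are 2 groups of 3 libraries, a gene that differs between the groups has a high r. PLB1, a phospholipase on chromosome 2 at 28680012 to 28867008, was at 2.92 CPM on average in GFP and 5.93 CPM with POU5F1B, and PITPNA, a phosphatidylinositol transfer protein, at 174 and 195 CPM. Among the members, r with EPAS1 was 0.839 for VHL, 0.576 for EGLN3 and 0.497 for HIF1AN. It was -0.275 for ARNT, -0.398 for EGLN2, -0.741 for ARNT2, -0.802 for HIF1A and -0.843 for EGLN1.

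Markers of other cell types were set beside these results, since EPAS1 is abundant in endothelium. The 8 epithelial markers all passed the filter on low counts, with a summed level of 6366 to 9580 CPM with GFP and 7909 to 8930 CPM in the POU5F1B libraries. Among them CDH1, the gene of E-cadherin, did not overlap and was 3.08 times as high with POU5F1B by the means, with pair differences of 2.28, 2.39 and 0.43 on the log2 scale. The other 7 overlapped, with fitted log2 values from -0.32 for CDX2 to 0.92 for EPCAM, whose difference in pair 3 was -1.04. Of 8 endothelial markers 7 were matched; CLDN5 and EMCN had 0 counts in all libraries, CDH5 and KDR at most 2, and the sum was 4.61 to 16.4 CPM with GFP and 5.58 to 8.73 CPM in the POU5F1B libraries. The sum lay within the GFP range, but ESAM, the endothelial marker with the highest count, was lower without overlap, at 9.86, 9.90 and 3.39 CPM with GFP and 1.73, 1.85 and 2.25 CPM in the POU5F1B replicates 1, 2 and 3. PECAM1 was not matched. The 8 immune markers summed to at most 1.94 CPM in any library, with CD68 and TYROBP at 0. The 8 fibroblast markers summed to 27.5 to 171 CPM with GFP and 13.4 to 22.9 CPM in the POU5F1B libraries, mostly COL1A1 and PDGFRB, with COL3A1 and FAP at 0. Their part in the differences above was not tested.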

How the data were processed

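Read counts per gene were analysed from 3 GFP and 3 POU5F1B libraries of SW480 cells. The authors deposited one table of raw counts per library, made by mapping to hg19 with hisat2 and counting uniquely mapped reads with featureCounts on genes and transposable elements together. The strand setting and the annotation release were not given in the sources used here, so counts of overlapping genes are uncertain, and reads in exons that a pair of genes share can be lost. Symbols were matched to 87.4% of the identifiers and to 112 of 113 list entries. Coordinates and exon lengths are from GENCODE on GRCh37 (the same build as hg19), promoters from RefSeq on GRCh38.p14.

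Groups and replicate numbers came from the sample titles. The filterByExpr function of edgeR 4.0.16 left 14286 genes, and TMM scaled the library sizes. Groups were compared by limma 3.58.1 (voom, moderated statistics, two-sided, no block) in R 4.3.3, and p-values were adjusted over the tested genes by Benjamini-Hochberg. The tool and the call threshold (adjusted p under 0.05, fold above 2) follow the study's methods. The paper counts SW480 among its settings with enough upregulated genes for an annotation of terms. Its gene list was not compared here. Log2 CPM used a prior count of 2. Error bars are SD or SE as stated; the depth of 10767947 to 12787637 counts gave each member 90 to 4419 counts per library, and floors of 3 counts cover counting error only. Lists are described by counts and medians with no test of the list.

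The alternatives were edgeR's quasi-likelihood test, DESeq2 1.42.0, sample quality weights, other scalings (DESeq2 size factors, upper quartile, total counts), other filters (at least 1 count in total, at least 10 counts in every library), the replicate number as a block, replicates 1 and 2 only, leaving out each library, and the longest transcript as the length. The fits were tested on simulated data. Members, lists and rules were chosen with earlier results of these data known. The genes named are the members; in each list the 3 largest changes without overlap and the 2 highest levels per kb; the neighbours of EPAS1 without overlap; and the 5 genes most and 5 least like EPAS1 over the libraries. Other genes are named after their values were seen. The values of 1 HIF-2 responsive gene that this rule names are not reported here, though its list's counts include it.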

Additional observations from a re-analysis of the deposited data

How the results depend on the processing

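EPAS1 was higher in POU5F1B cells in each of the 16 alternative settings, by 1.89 to 2.28 on the log2 scale, and moved by less than the spread between replicates. These settings reuse the libraries by which EPAS1 was chosen, so its values remain a description. For the other 8 members, none passed the threshold in any setting; of 128 values 124 kept their direction. ARNT took the other sign without GFP replicate 1 (0.012; range over the fits that left out one library -0.25 to 0.012), and HIF1AN with replicates 1 and 2 only (-0.070), with quality weights (-0.035) and on leaving out GFP replicate 3 (range over the fits that left out one library -0.016 to 0.14). The number of all genes past the threshold was 232 with DESeq2, 1077 with quality weights, 4 with no filter, 1 with the replicate block and 1194 with replicates 1 and 2 only, and 0 to 595 when one library was left out, highest without GFP replicate 3 and 5 without POU5F1B replicate 3; the cause was not tested. HIF-2 responsive genes past the threshold numbered 1 with DESeq2, 6 with quality weights and 6 with replicates 1 and 2 only (4 higher and 2 lower each time), and 0 to 2 when one library was left out. The other HIF regulators and the HIF-1 responsive genes had 1 each (CITED2, lower, and DDIT4, higher, with replicates 1 and 2 only) with quality weights and with replicates 1 and 2 only, and 0 to 1 when one library was left out, 1 each without GFP replicate 3. The EPAS1 level per kb in GFP cells was 15.7 with the longest transcript.

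Deviations of same-numbered libraries from their group means correlated at 0.242, 0.088 and 0.165 across genes for replicates 1, 2 and 3, and since one is under 0.1 the numbers were not taken to pair the libraries, though a shared factor was not excluded. With the replicate block EPAS1 had a log2 fold change of 2.11, HIF1A -0.62 (unadjusted p = 0.0773 by limma voom, no longer under 0.05) and EGLN3 0.52 (unadjusted p = 0.0490 by limma voom, now under 0.05). Of genes at an unadjusted p under 0.05, 867 were higher and 831 lower with TMM, but 1090 and 645 with the upper quartile and 1037 and 668 with total counts; no scaling moved the median of all genes by more than 0.048. Depth limits HIF3A, EPO, TEK and BNIP3, at 0 to 3 counts per library.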
